A study of Homo sapiens with 8 samples.

Results

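The transcripts described here are those of 10 genes of the bone morphogenetic protein (BMP) and inhibitor of DNA binding (ID) axis, out of 60554 gene rows in the count files. They are the ligands BMP2, BMP4, BMP6 and BMP7, the secreted antagonists noggin (NOG), gremlin 1 (GREM1) and follistatin (FST), and the target genes ID1, ID2 and ID3. Each was found by its gene symbol and had 1 row, and all 10 passed the filter on low counts. The genes were chosen by their CPM and fold changes between resistant and sensitive cells in these same libraries, so their levels and fold changes are given as a description, with no p-value. How many of them passed the threshold is given beside the share of all genes, and nothing is read from it.

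The libraries were bulk RNA-seq libraries of the prostate cancer lines DU145, first grown from a brain metastasis, and PC3, first grown from a bone metastasis, and of a variant of each that had been made resistant to docetaxel, a taxane that stabilizes microtubules. There were 2 libraries in each of 4 groups, DU145 resistant, DU145 sensitive, PC3 resistant and PC3 sensitive. Resistant cells were kept in medium with 10 nM docetaxel dissolved in DMSO, and sensitive cells in medium with 0.1% DMSO. All were grown in RPMI medium with serum, and total RNA was made into libraries with a SMART-seq mRNA kit. Each line is represented by 1 resistant variant, so a difference belongs to that variant. For its single cell libraries, the paper states that cells spent 1 week in medium without docetaxel. The sources used here do not say whether docetaxel was withdrawn before the bulk RNA was taken, nor whether separate cultures gave the libraries of a group. The p-values therefore measure no more than the spread between libraries, which may be technical.

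BMPs are secreted ligands of the TGF-beta family that bind type I and type II receptor kinases, which phosphorylate SMAD1, SMAD5 and SMAD9 and send them with SMAD4 to the nucleus. Noggin and gremlin bind BMPs outside the cell and keep them from their receptors, whereas follistatin binds activins most tightly and some BMPs more weakly. ID1, ID2 and ID3 are among the best known direct targets of this pathway, and their proteins lack a DNA binding region and hold E proteins away from the E-boxes they would bind. In prostate cancer the pathway is known for its part in growth of bone metastases.

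Total counts were 34222903 and 34714404 in DU145 resistant, 35929921 and 34780848 in DU145 sensitive, 43045127 and 38565475 in PC3 resistant and 34531919 and 31685148 in PC3 sensitive libraries. Levels are given as CPM, counts scaled to the total of the library. ABCB1, the efflux pump that carries docetaxel out of cells, served as a check of the labels. It had 1170 and 1050 CPM in DU145 resistant against 1.67 and 1.61 CPM in DU145 sensitive libraries, and 98.1 and 86.6 CPM in PC3 resistant against 2.09 and 3.38 CPM in PC3 sensitive libraries. The prostate luminal genes KLK2 and KLK3 had no read in any library. The 5 epithelial markers EPCAM, KRT8, KRT18, KRT19 and CDH1 summed to 250 to 396 CPM in DU145 resistant against 2560 to 4180 CPM in DU145 sensitive libraries, and to 973 to 1000 CPM in PC3 resistant against 758 to 849 CPM in PC3 sensitive libraries. KRT8 and KRT18 made up most of the DU145 sensitive sum. CDH1 had at most 0.49 CPM in DU145 resistant against at least 21.3 CPM in DU145 sensitive libraries. KRT19 had at most 39.6 CPM in DU145 resistant against at least 86.1 CPM in DU145 sensitive libraries. EPCAM differed less, with 18.6 and 17.5 CPM in DU145 resistant against 21.6 and 20.2 CPM in DU145 sensitive libraries. The 4 endothelial markers summed to 20.7 to 50.3 CPM in PC3 resistant against 6.75 to 7.04 CPM in PC3 sensitive libraries, with at most 1.39 CPM in any DU145 library. In PC3 resistant libraries this was nearly all PECAM1 (13.0 and 25.0 CPM) and KDR (7.39 and 24.9 CPM). VWF and CDH5 had at most 0.302 CPM there. The 5 leukocyte markers summed to at most 6.95 CPM in any library, and CD3E was at 0 in all. The part of these cell type genes in the results below was not tested. In bulk RNA, fewer cells that express a gene and less transcript per cell cannot be told apart.

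The promoters of the ID genes are shown because these are the pathway's read-out and their transcripts differed in the same direction between libraries of a resistant group, and that of BMP6 because it is the ligand of this set with the highest PC3 fold change that could be fitted and with a promoter in the table. The sequences are from RefSeq (GRCh38.p14), the 250 bases before the annotated start, 5′ to 3′ on the gene's strand. Capitals mark GTCT or its reverse complement AGAC, the 4-letter SMAD box. Of the 10 genes, 7 were matched in the RefSeq table, all but BMP2, BMP7 and NOG.
ID1 (chr20:31605039-31605288, plus strand): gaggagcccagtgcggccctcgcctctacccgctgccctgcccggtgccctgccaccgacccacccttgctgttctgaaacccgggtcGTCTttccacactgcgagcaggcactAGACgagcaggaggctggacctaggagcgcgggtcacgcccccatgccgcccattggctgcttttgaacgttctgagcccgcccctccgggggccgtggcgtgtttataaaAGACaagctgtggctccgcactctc
ID2 (chr2:8681806-8682055, plus strand): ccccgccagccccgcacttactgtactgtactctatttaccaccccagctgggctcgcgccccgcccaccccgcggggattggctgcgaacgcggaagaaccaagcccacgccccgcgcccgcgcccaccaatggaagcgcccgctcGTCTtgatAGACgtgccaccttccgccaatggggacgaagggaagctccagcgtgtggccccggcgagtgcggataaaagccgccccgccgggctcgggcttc
ID3 (chr1:23559502-23559751, minus strand): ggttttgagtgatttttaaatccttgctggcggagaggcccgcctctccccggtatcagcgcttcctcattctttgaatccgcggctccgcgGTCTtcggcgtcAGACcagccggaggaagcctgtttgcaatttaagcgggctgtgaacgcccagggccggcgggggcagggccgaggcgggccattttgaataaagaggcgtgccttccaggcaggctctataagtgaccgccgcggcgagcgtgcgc
BMP6 (chr6:7725849-7726098, plus strand): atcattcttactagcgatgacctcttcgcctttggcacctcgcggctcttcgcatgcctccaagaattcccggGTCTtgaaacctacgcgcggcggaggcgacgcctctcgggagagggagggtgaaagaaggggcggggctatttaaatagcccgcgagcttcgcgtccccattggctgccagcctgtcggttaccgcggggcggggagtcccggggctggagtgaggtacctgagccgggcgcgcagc

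The ID1 window held 3 matches to the SMAD box, at -162, -136 and -25 from the start. The ID2 window held 2, at -103 and -95, the ID3 window held 2, at -158 and -146, and the BMP6 window held 1, at -177. In ID2 and ID3 the pair lay on opposite strands, GTCT before AGAC. So short a word is common, and 77.5% of 35116 RefSeq promoters of this length held at least 1. The longer GGCGCC, a palindrome that BMP-activated SMADs are known to bind, was in none of these 4 windows. It occurred in 1 of the BMP4 promoters, once, and in 1 of the GREM1 promoters, at 2 places, beside 16.4% of all promoters. The E-box CANNTG, with N any base, was found once in the ID2 window, at -205, and in 61.8% of all promoters. Both strands were searched, and no match in the 4 printed windows overlapped another. A match is a description of the letters and not evidence of a bound site. Bases farther upstream were not searched, so a motif missing from a window may lie there.

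BMP7 showed the sharpest contrast between the lines. It lies on chromosome 20 (57168753 to 57266641, minus strand, GRCh38, GENCODE 44) and encodes a BMP with roles in kidney and bone. BMP7 had 0.175 and 0.461 CPM in DU145 resistant against 17.8 and 17.0 CPM in DU145 sensitive libraries. The PC3 libraries had 21.5 and 18.7 CPM in resistant against 0.434 and 0.252 CPM in sensitive libraries. The resistant libraries thus lay below both sensitive libraries in DU145 and above both in PC3, and the level in DU145 sensitive cells was near that in PC3 resistant cells. The log2 fold change, resistant over sensitive, was -5.76 (SE 0.36, with 2 libraries against 2), or 54.1-fold lower, in DU145 and 5.74 (SE 0.36), or 53.6-fold higher, in PC3. The low values rest on few reads, with 6 and 16 counts in DU145 resistant and 15 and 8 counts in PC3 sensitive libraries. By mean CPM the groups ran from PC3 resistant to DU145 sensitive, PC3 sensitive and DU145 resistant, and only the last pair overlapped. Leaving out DU145 resistant replicate 2 gave -6.52 in DU145, and leaving out replicate 1 gave -5.29. In PC3 the value was 6.21 without sensitive replicate 1. BMP7-AS1, an antisense RNA on the opposite strand, had 0 counts in every library.

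BMP4, a ligand of mesoderm patterning and of bone (chromosome 14, 53949736 to 53958761, minus strand), also lay lower in DU145 resistant and higher in PC3 resistant cells than in their sensitive counterparts. It had 0.731 and 1.01 CPM in DU145 resistant against 12.4 and 7.88 CPM in DU145 sensitive libraries. The PC3 levels of BMP4 were 6.37 and 5.5 CPM in resistant against 3.16 and 3.44 CPM in sensitive libraries. The groups did not overlap in either line, and no neighbouring groups overlapped in the order DU145 sensitive, PC3 resistant, PC3 sensitive and DU145 resistant. The log2 fold changes were -3.54 (SE 0.32) in DU145 and 0.75 (SE 0.29) in PC3. Without DU145 sensitive replicate 1, the library with the highest level, the DU145 value was -3.14.

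BMP6, a ligand known for its control of hepcidin in the liver (chromosome 6, 7726099 to 7881728, plus strand), differed in PC3. It had 9.04 and 9.83 CPM in PC3 resistant against 0.145 and 0.0316 CPM, or 5 and 1 counts, in PC3 sensitive libraries. In DU145 it had 12.4 and 15.2 CPM in resistant against 10.2 and 13.4 CPM in sensitive libraries, which overlapped. The PC3 sensitive group was thus the only one of the 4 with BMP6 near 0. Its log2 fold change was 6.55 (SE 0.42) in PC3, with 8.0 when sensitive replicate 1 was left out and 5.87 when sensitive replicate 2 was, and 0.22 (SE 0.25) in DU145. Exons of TXNDC5 overlap those of BMP6 on the opposite strand, and the strand setting of the counts is not known. TXNDC5 had 543 and 373 counts in PC3 resistant and 371 and 273 counts in PC3 sensitive libraries, where BMP6 had 5 and 1 counts.

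BMP2, a ligand that drives bone formation (chromosome 20, 6767686 to 6780246, plus strand), had more than 2 counts in the PC3 resistant libraries only. It had 2.74 and 2.54 CPM in PC3 resistant libraries, or 118 and 98 counts, against 0 and 0 counts in PC3 sensitive libraries. In DU145 it had 0 and 2 counts in resistant against 0 and 0 counts in sensitive libraries. Against a floor of 3 counts over the PC3 sensitive group, BMP2 was at least 58.4-fold higher in PC3 resistant cells. In DU145 both groups were under that floor and no fold is given.

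Noggin was higher in the resistant cells of both lines. NOG is a gene of chromosome 17 (56593699 to 56595611, plus strand). It had 28.2 and 28.1 CPM in DU145 resistant against 1.67 and 2.21 CPM in DU145 sensitive libraries. In PC3 it had 266 and 319 CPM in resistant against 1.62 and 3.41 CPM in sensitive libraries. No resistant library overlapped a sensitive one in either line, and the 4 sensitive libraries overlapped between the lines. The log2 fold changes were 3.87 (SE 0.28), or 14.6-fold, in DU145 and 6.77 (SE 0.3), or 109-fold, in PC3. The PC3 value was 6.34 without sensitive replicate 1 and 7.37 without sensitive replicate 2.

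Follistatin differed between resistant and sensitive cells in DU145, but most of its variation was between the lines. FST (chromosome 5, 53480626 to 53487134, plus strand) had 3.04 and 3.49 CPM in DU145 resistant against 0.863 and 0.748 CPM in DU145 sensitive libraries. The PC3 levels of FST were 298 and 263 CPM in resistant against 300 and 264 CPM in sensitive libraries. The DU145 groups did not overlap, the PC3 groups did, and every PC3 library lay far above every DU145 library. The log2 fold changes were 2.02 (SE 0.2), or 4.05-fold, in DU145 and -0.11 (SE 0.14) in PC3. The DU145 levels were a small part of the mean of FST over all 8 libraries, 2.15% and 2.46% in resistant and 0.61% and 0.528% in sensitive libraries. Over the 2659 genes that averaged 100 CPM or more, no gene was under 0.466% and 0.408% of its own mean in those DU145 sensitive libraries. How much of the FST counts in DU145 sensitive cells came from reads of other libraries was not tested.

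Gremlin 1 lay between 6.04 and 8.18 CPM in all 8 libraries. GREM1 (chromosome 15, 32718004 to 32745106, plus strand) had 6.37 and 8.18 CPM in DU145 resistant against 6.04 and 7.76 CPM in DU145 sensitive libraries. PC3 cells had 6.92 and 7.52 CPM in resistant against 6.66 and 7.16 CPM in sensitive libraries. All neighbouring groups overlapped. The log2 fold changes were 0.08 (SE 0.23) in DU145 and -0.04 (SE 0.23) in PC3.

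**Figure D1:**
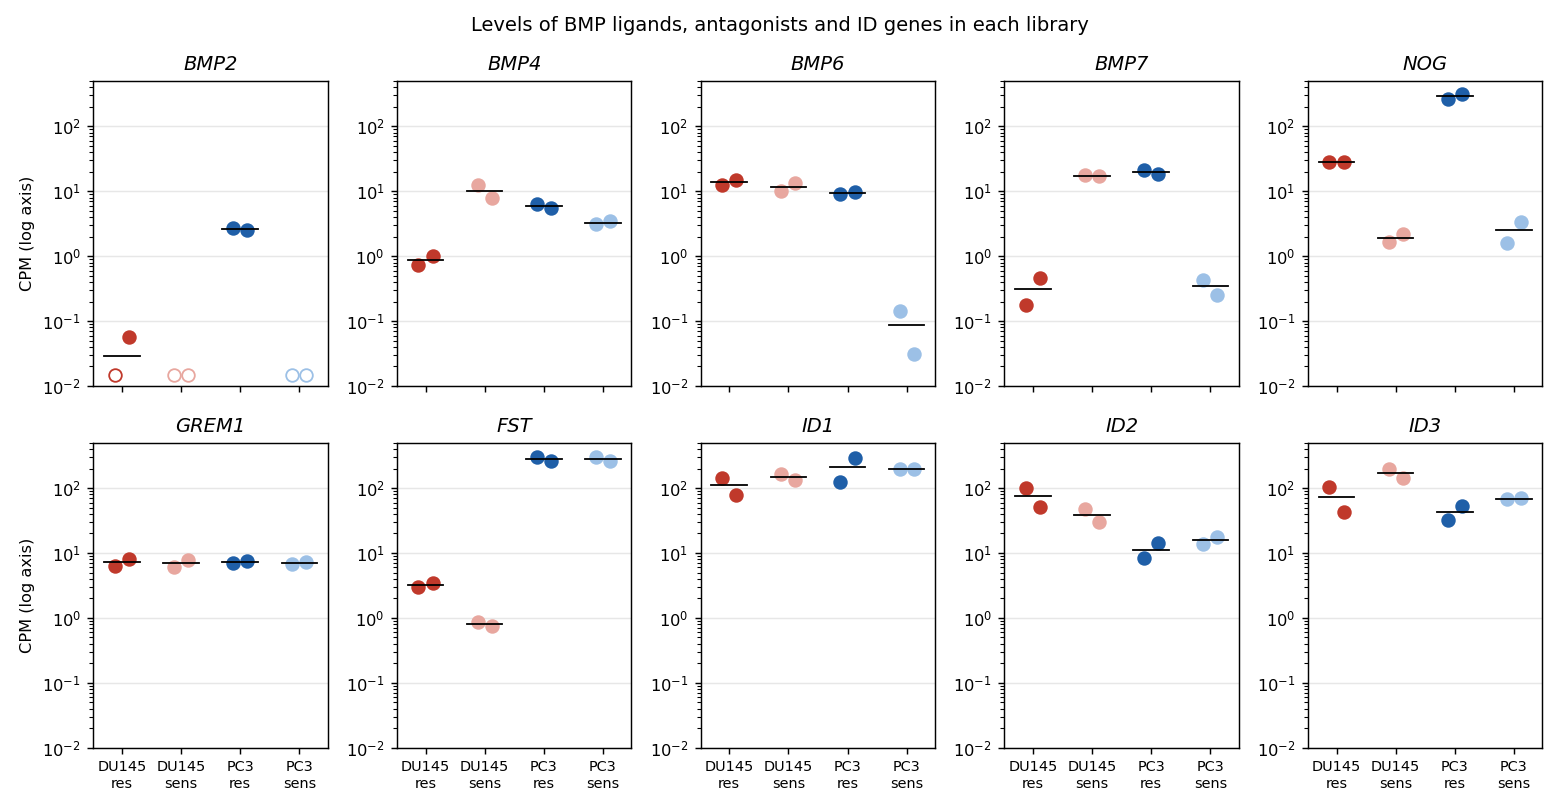
CPM (log axis) of the 10 genes in each library, with resistant (res) and sensitive (sens) groups of DU145 and PC3 on the x axis. Points are libraries, bars are means of the 2 libraries, and open circles at the lower edge stand for 0 counts. BMP7 lies at 0.175 to 0.461 CPM in DU145 resistant and 0.252 to 0.434 CPM in PC3 sensitive libraries, and at 17.0 to 21.5 CPM in the other 4.

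The ID genes had at least 8.41 CPM in every library, and in both resistant groups the 2 libraries differed by 1.64-fold to 2.4-fold. ID1 (chromosome 20, 31605283 to 31606515, plus strand) had 142 and 78.3 CPM in DU145 resistant against 165 and 133 CPM in DU145 sensitive libraries. ID1 in PC3 had 123 and 295 CPM in resistant against 195 and 195 CPM in sensitive libraries. The groups overlapped in both lines, and the PC3 resistant libraries lay on either side of both sensitive ones. The log2 fold changes of ID1 were -0.41 (SE 0.37) in DU145 and 0.0 (SE 0.37) in PC3. A single library moved them, with -0.99 without DU145 resistant replicate 1 against 0.02 without DU145 resistant replicate 2. In PC3 the value was 0.51 without resistant replicate 1 and -0.77 without resistant replicate 2.

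ID2 (chromosome 2, 8678845 to 8684461, plus strand) had 101 and 51.4 CPM in DU145 resistant against 47.4 and 29.6 CPM in DU145 sensitive libraries. ID2 in PC3 had 8.41 and 14.2 CPM in resistant against 13.7 and 17.6 CPM in sensitive libraries. The resistant libraries lay above the sensitive ones in DU145, by a small margin, and the groups overlapped in PC3. The log2 fold changes were 1.01 (SE 0.36) in DU145 and -0.56 (SE 0.37) in PC3. The DU145 value ranged from 0.35 without resistant replicate 1 to 1.47 without resistant replicate 2, and it was 1.43 without sensitive replicate 1. In PC3 it was -1.0 without resistant replicate 2. The antisense ID2-AS1 had 11 to 70 counts over the 8 libraries, against at least 362 counts of ID2.

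ID3 (chromosome 1, 23557926 to 23559501, minus strand) had 104 and 43.2 CPM in DU145 resistant against 196 and 142 CPM in DU145 sensitive libraries. ID3 in PC3 had 31.9 and 52.4 CPM in resistant against 67.6 and 70.6 CPM in sensitive libraries. ID3 was the only one of the 3 whose resistant libraries lay below the sensitive ones in both lines. Its log2 fold changes were -1.17 (SE 0.37) in DU145 and -0.81 (SE 0.37) in PC3. Without DU145 resistant replicate 1 the DU145 value was -2.03, and without DU145 resistant replicate 2 it was -0.62. In PC3 it was -1.22 without resistant replicate 2.

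In the libraries of each resistant group, the ID genes differed in the same direction. All 3 were higher in replicate 1 of the DU145 resistant libraries, by 1.82-fold for ID1, 1.96-fold for ID2 and 2.4-fold for ID3. In the PC3 resistant libraries all 3 were higher in replicate 2, by 2.4-fold, 1.69-fold and 1.64-fold in the same order. Such ratios were uncommon, since the median ratio of the higher to the lower library over genes with at least 100 counts in both was 1.15 in the DU145 and 1.13 in the PC3 resistant group, and the 95th percentiles were 1.67 and 1.6. In the DU145 sensitive libraries replicate 1 was higher by 1.23-fold, 1.6-fold and 1.39-fold, beside a median of 1.15 and a 95th percentile of 1.6. In the PC3 sensitive libraries the ratios were 1.0, 1.28 and 1.05, beside a median of 1.08. The SE of the ID fold changes carries this spread. Of the other BMP targets, 2 named after their values were seen had ratios of this size in the DU145 resistant libraries with replicate 1 higher, SMAD6 (2.13-fold) and ATOH8 (2.84-fold), whereas RUNX2 was 2.67-fold higher in replicate 2. HEY1, also named after its values were seen, was 2.81-fold higher in replicate 2 of the PC3 resistant libraries.

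**Figure D2:**
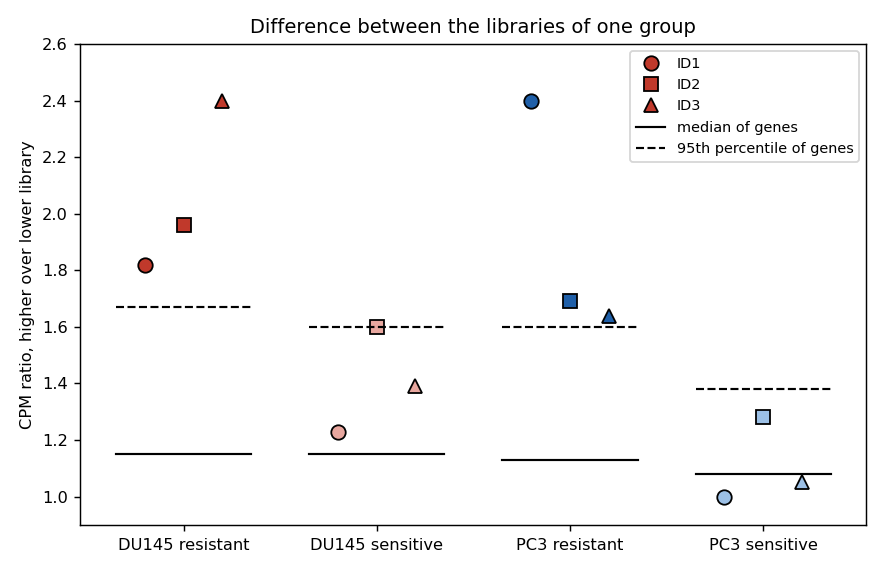
Ratio of the higher to the lower library of a group in CPM, for ID1, ID2 and ID3 (symbols), with the 4 groups on the x axis. Solid lines are the median and dashed lines the 95th percentile of genes with at least 100 counts in both libraries. All 3 ID genes lie above the 95th percentile in the DU145 resistant (1.67) and PC3 resistant (1.6) groups.

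Of the 10 genes, 2 (NOG, FST) passed the 0.05 threshold of the edgeR adjusted p as higher in DU145 resistant cells, beside 12.4% of 20238 tested genes, and 3 (BMP4, BMP7, ID3) passed as lower, beside 15.4%. In PC3, 4 (BMP2, BMP6, BMP7, NOG) passed as higher, beside 18.6%, and 0 as lower, beside 17.0%, with 0 by DESeq2 and 0 at an unadjusted p under 0.05. That count of 0 was 2 without the low count filter, 2 with a replicate block, 1 with a fit on PC3 alone, and 1 when either DU145 resistant library was left out. The PC3 change minus the DU145 change passed as higher for 4 of the 10, beside 18.5%, and as lower for 2, beside 15.9%. The count of 2 was 1 without DU145 sensitive replicate 2, DU145 resistant replicate 1, PC3 sensitive replicate 2 or PC3 resistant replicate 1. Resistant and sensitive libraries did not overlap for 6 of the 10 genes in DU145, beside 61.3% of tested genes, and for 6 in PC3, beside 71.5%. These contrasts chose the genes and nothing is read from the counts. Median log2 fold changes of all tested genes were 0.0 in DU145 and 0.01 in PC3.

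**Figure D3:**
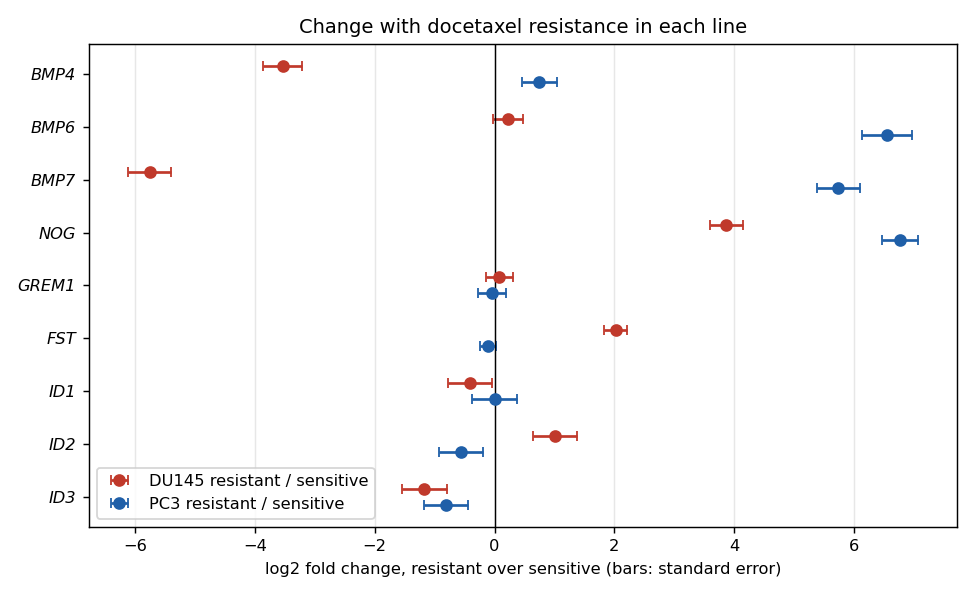
Log2 fold change, resistant over sensitive, of 9 of the genes in DU145 and PC3, with standard errors of the edgeR fit as bars (2 libraries against 2). BMP2 is left out because its sensitive libraries had no count. BMP7 lies at -5.76 in DU145 and 5.74 in PC3, and NOG lies right of 0 in both lines, at 3.87 and 6.77.

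Summed per length over the 4 ligands and 3 antagonists of this set, antagonist transcript exceeded ligand transcript in 3 of the 4 groups. Levels of different genes were put on 1 scale as RPKM, which is CPM divided by the exon length in kilobases, with lengths from GENCODE 44. In DU145 resistant libraries the 4 ligands summed to 3.54 and 4.43 RPKM and the 3 antagonists to 16.2 and 16.5 RPKM. In DU145 sensitive libraries the ligands summed to 10.0 and 9.23 RPKM and the antagonists to 1.6 and 1.96 RPKM. DU145 sensitive cells were the only group with more ligand than antagonist transcript by these sums. Pathway genes outside the 10 are not in the sums, so they do not give the balance of all ligands and antagonists. In DU145 sensitive libraries the follistatin-like FSTL3 had 97.0 and 101 CPM and the ligand BMP8B 32.3 and 31.4 CPM. These values are CPM and not RPKM, and the exon lengths are 3033 bases for FSTL3 and 4826 bases for BMP8B. Per length, FSTL3 alone exceeded the 4 ligands and BMP8B together. With both genes added, DU145 sensitive cells would not have more ligand than antagonist transcript. In PC3 resistant libraries the ligands summed to 9.18 and 8.56 RPKM and the antagonists to 247 and 263 RPKM, against 1.14 and 1.16 RPKM of ligands and 110 and 98.2 RPKM of antagonists in PC3 sensitive libraries. Noggin made up most of the antagonist sum in DU145 resistant (mean 14.7 RPKM) and PC3 resistant cells (mean 153 RPKM). Follistatin made up nearly all of it in PC3 sensitive cells, with a mean of 102 RPKM beside 1.31 RPKM of noggin. BMP6 was the main ligand in DU145 resistant cells, with a mean of 3.64 RPKM beside 0.0586 RPKM of BMP7, whereas BMP4, BMP6 and BMP7 each had 3.13 to 3.28 RPKM in DU145 sensitive cells. In PC3 resistant cells BMP7 led with 3.71 RPKM, and in PC3 sensitive cells BMP4 did with 1.07 RPKM. The exon lengths count every annotated transcript, so a gene with a long untranslated part that is rarely used is set too low, and RPKM of GREM1, whose union spans 14784 bases, was 0.409 to 0.553 in all libraries.

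**Figure D4:**
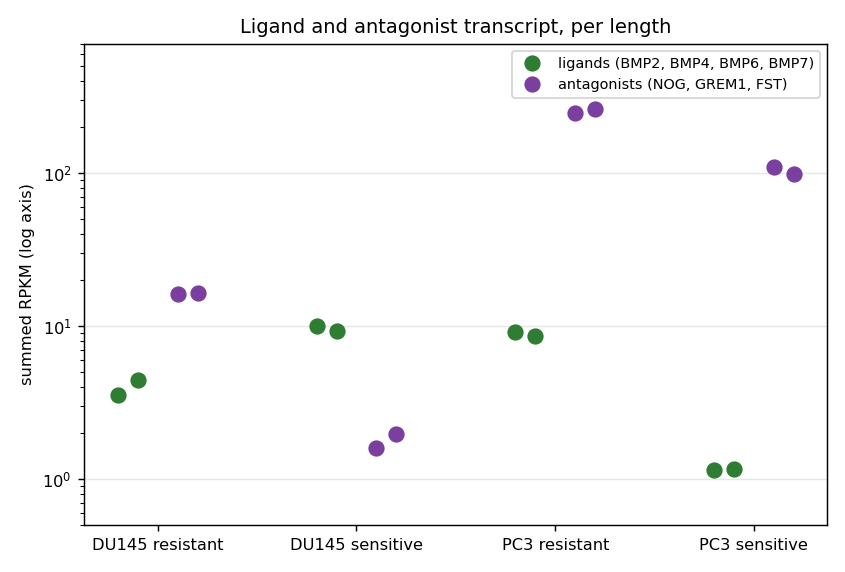
Summed RPKM (log axis) of the 4 ligands (green) and the 3 antagonists (purple) in each library, by group. Each point is 1 library. The antagonist sum is 16.2 and 16.5 in DU145 resistant against 1.6 and 1.96 in DU145 sensitive libraries, and the DU145 sensitive group is the only one with the ligand points above the antagonist points.

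The other genes of the pathway were taken from 7 lists of 76 genes, chosen with earlier results of these data known, of which 62 were tested with edgeR over all genes. In DU145 resistant cells 6 were higher, 16 lower and 40 did not pass, with a median log2 fold change of -0.29. The count of 6 higher was 3 when replicate 2 of the DU145 resistant group was left out, and also 3 when that of the DU145 sensitive group was. In PC3 resistant cells 19 were higher, 16 lower and 27 did not pass, with a median of 0.05. In either direction 22 of 62 (35.5%) passed in DU145, beside 27.8% of all tested genes, and 35 of 62 (56.5%) passed in PC3, beside 35.6%. The change differed between the lines for 36 of the 62 (58.1%), 24 with a higher value in PC3 and 12 with a lower one, beside 34.3% of all genes. The count of 12 was 6 without DU145 sensitive replicate 1, 6 without PC3 sensitive replicate 1 and 7 without PC3 resistant replicate 1. As with BMP7, 6 genes were lower in DU145 and higher in PC3, namely INHA, CHRD, RGMA, CTDSPL, MSX1 and MSX2, and 0 were the other way round by edgeR or by DESeq2. Of those 6, INHA averaged 0.974 CPM and lay near the threshold (edgeR adjusted p = 0.0442 in DU145 and 0.0404 in PC3). So did CHRD in DU145 (edgeR adjusted p = 0.0448). Among all tested genes 825, or 4.08%, had the pattern of those 6, and 582, or 2.88%, had the reverse. At an unadjusted p under 0.05 the pathway counts were 8 and 0, beside 6.3% and 4.95% of all tested genes.

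Among other ligands, BMP8B had 14.6 and 14.9 CPM in DU145 resistant against 32.3 and 31.4 CPM in DU145 sensitive libraries, a log2 fold change of -1.1 (SE 0.21, edgeR adjusted p = 0.0033). In PC3 it had 6.23 and 4.8 CPM in resistant against 6.57 and 4.77 CPM in sensitive libraries (-0.14, edgeR adjusted p = 0.655). BMP8A and BMP8B are near copies, so the split of reads between them is uncertain. INHBA, the subunit of activin A, which follistatin binds, had 160 and 206 CPM in PC3 resistant against 15.8 and 25.4 CPM in PC3 sensitive libraries (3.06, SE 0.33, edgeR adjusted p = 5.77e-05). INHBB, the subunit of activin B, went the other way in PC3, with 220 and 91.2 CPM in resistant against 771 and 603 CPM in sensitive libraries (-2.25, SE 0.34, edgeR adjusted p = 0.0006), and -3.01 without resistant replicate 1. Neither passed in DU145, where both were under 3 CPM.

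Several antagonists beside noggin differed in PC3. Of the 13 tested antagonists and modulators outside the 10 genes, 5 were higher and 4 lower in PC3, beside 18.6% and 17.0% of all tested genes. In DU145, 1 was higher and 5 lower, beside 12.4% and 15.4%. CHRDL1, a chordin-like BMP antagonist, had 85.1 and 95.8 CPM in PC3 resistant against 0.174 and 0.126 CPM in PC3 sensitive libraries (9.09, SE 0.31, edgeR adjusted p = 4.22e-08). It stayed at 0.115 to 0.278 CPM in the DU145 libraries. Chordin itself, CHRD, had 230 counts over the PC3 resistant and 1 count over the PC3 sensitive libraries, a ratio of 187 (95% interval 33.2 to 7400, counting error only, edgeR adjusted p = 8.74e-05). In DU145 it had 0.76 and 2.19 CPM in resistant against 3.37 and 3.91 CPM in sensitive libraries (-1.31, SE 0.43, edgeR adjusted p = 0.0448), a call that was lost in 6 of 14 alternatives, with adjusted p from 0.00376 to 0.211, and its value was -2.16 without resistant replicate 2. TLL2 and TLL1, relatives of the protease BMP1 that cuts chordin, moved apart in PC3. TLL2 had 2.76 and 2.28 CPM in PC3 resistant against 0.319 and 0.189 CPM in PC3 sensitive libraries (3.18, SE 0.38, edgeR adjusted p = 0.000115). TLL1 had 6.57 and 3.84 CPM in PC3 resistant against 26.5 and 23.2 CPM in PC3 sensitive libraries (-2.35, SE 0.38, edgeR adjusted p = 0.000956).

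Of 12 tested receptors and co-receptors, 3 were higher and 3 lower in PC3, beside 18.6% and 17.0% of all tested genes. In DU145, 2 were higher and 3 lower, beside 12.4% and 15.4%. NEO1, neogenin, a receptor of repulsive guidance molecules, had 72.2 and 77.3 CPM in PC3 resistant against 1.04 and 1.07 CPM in PC3 sensitive libraries (6.04, SE 0.17, edgeR adjusted p = 1.71e-08). All DU145 libraries held 95.3 to 112 CPM of it. RGMA, a BMP co-receptor that binds neogenin, had 3.95 and 4.62 CPM in PC3 resistant against 0.376 and 0.126 CPM in PC3 sensitive libraries (3.95, SE 0.49, edgeR adjusted p = 0.000157), and the value was 4.96 without sensitive replicate 1. In DU145 it had 0.263 and 0.403 CPM in resistant against 1.28 and 2.01 CPM in sensitive libraries (-2.28, SE 0.48, edgeR adjusted p = 0.00508). TGFBR3, the co-receptor betaglycan, had 14.8 and 10.1 CPM in DU145 resistant against 69.4 and 74.1 CPM in DU145 sensitive libraries (-2.51, SE 0.23, edgeR adjusted p = 3.41e-05). ENG, endoglin, had 5.65 and 8.43 CPM in PC3 resistant against 23.0 and 23.3 CPM in PC3 sensitive libraries (-1.82, SE 0.28, edgeR adjusted p = 0.000683).

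Of 13 SMADs and intracellular regulators, 4 were higher and 5 lower in PC3, beside 18.6% and 17.0% of all tested genes. In DU145, 1 was higher and 2 lower, beside 12.4% and 15.4%. SMAD9, a receptor-activated SMAD, had 4.99 and 10.1 CPM in PC3 resistant against 0.666 and 0.915 CPM in PC3 sensitive libraries (3.15, SE 0.39, edgeR adjusted p = 0.000159), and the value was 2.55 without resistant replicate 2. SMAD1 had 53.5 and 56.6 CPM in PC3 resistant against 22.0 and 20.3 CPM in PC3 sensitive libraries (1.28, SE 0.16, edgeR adjusted p = 0.000185). CTDSPL, a phosphatase related to those that remove phosphate from SMAD1, had 25.3 and 26.4 CPM in PC3 resistant against 0.203 and 0.284 CPM in PC3 sensitive libraries (6.62, SE 0.25, edgeR adjusted p = 5.7e-08). In DU145 it had 21.0 and 19.5 CPM in resistant against 45.0 and 45.7 CPM in sensitive libraries (-1.15, SE 0.16, edgeR adjusted p = 0.000512). SKIL, a SMAD co-repressor, had 41.1 and 27.5 CPM in PC3 resistant against 82.9 and 107 CPM in PC3 sensitive libraries (-1.56, SE 0.22, edgeR adjusted p = 0.000348).

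Targets other than ID1 to ID3 went in different directions. Of 11 tested, 4 were higher and 2 lower in PC3, beside 18.6% and 17.0% of all tested genes. In DU145, 1 was higher and 4 lower, beside 12.4% and 15.4%. The homeobox genes MSX1 and MSX2, which BMPs induce in many tissues, had the direction of BMP7 in each line. MSX1 had 0.789 and 1.24 CPM in DU145 resistant against 4.01 and 3.42 CPM in DU145 sensitive libraries (-1.87, SE 0.26, edgeR adjusted p = 0.000432). In PC3 it had 43.3 and 53.4 CPM in resistant against 6.46 and 6.09 CPM in sensitive libraries (2.85, SE 0.22, edgeR adjusted p = 6.29e-06). MSX2 had 0.438 and 0.259 CPM in DU145 resistant against 3.76 and 2.62 CPM in DU145 sensitive libraries (-3.17, SE 0.52, edgeR adjusted p = 0.00131). In PC3 it had 6.85 and 8.38 CPM in resistant against 1.19 and 0.379 CPM in sensitive libraries (3.16, SE 0.47, edgeR adjusted p = 0.000567). The sensitive libraries differed, and the PC3 value was 4.23 without sensitive replicate 1 and 2.56 without sensitive replicate 2.

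SMAD6 and SMAD7, the inhibitory SMADs that BMP and TGF-beta signals induce, were lower in PC3 resistant cells. In those cells the ligands BMP7, BMP6 and BMP2 and the antagonist NOG were higher, and BMP signalling was not measured. SMAD6 had 7.39 and 7.49 CPM in PC3 resistant against 35.1 and 26.6 CPM in PC3 sensitive libraries (-2.15, SE 0.33, edgeR adjusted p = 0.000615). SMAD7 had 3.62 and 2.59 CPM in PC3 resistant against 10.4 and 9.94 CPM in PC3 sensitive libraries (-1.81, SE 0.27, edgeR adjusted p = 0.0005). Neither passed in DU145, with values of -0.56 (edgeR adjusted p = 0.235) and 0.07 (edgeR adjusted p = 0.866), though SMAD6 was -1.28 (edgeR adjusted p = 0.00751) without DU145 resistant replicate 1. Of the 3 E proteins that ID proteins hold, TCF3 was lower in PC3, with 99.1 and 98.1 CPM in resistant against 124 and 124 CPM in sensitive libraries (-0.43, SE 0.12, edgeR adjusted p = 0.0192). That call was lost in 5 of 14 alternatives, with adjusted p from 0.00598 to 0.13. In DU145 TCF3 had a value of 0.06 (edgeR adjusted p = 0.761).

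**Figure D5:**
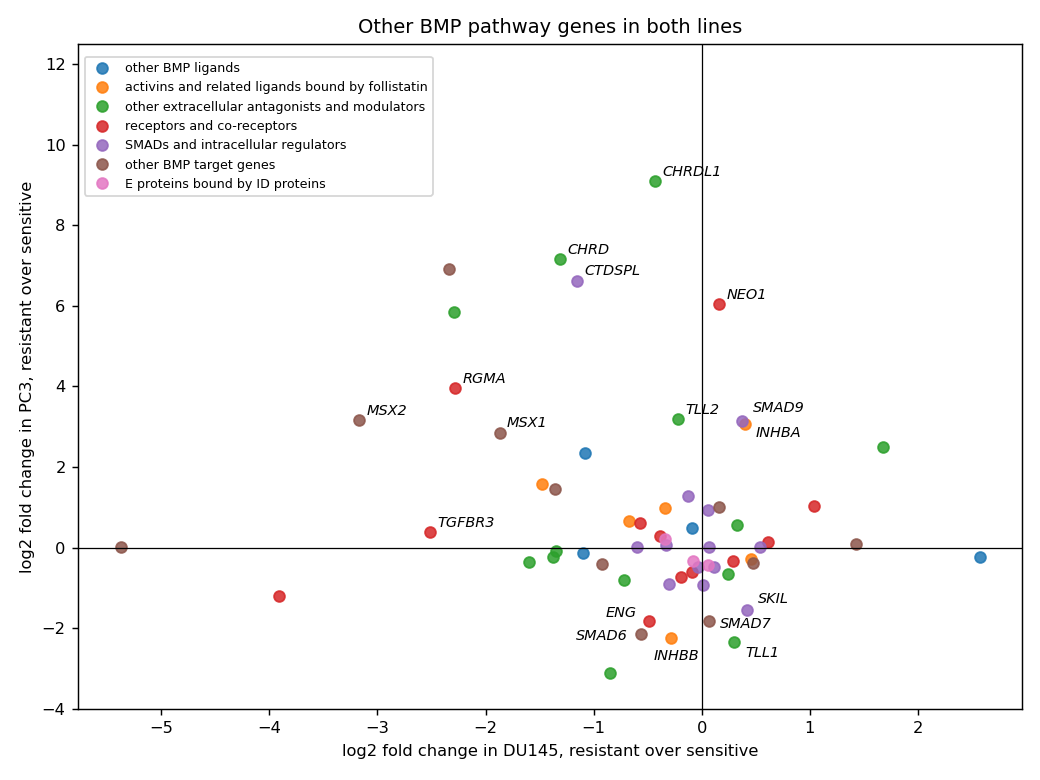
Log2 fold change, resistant over sensitive, of the 62 tested pathway genes outside the 10, with DU145 on the x axis and PC3 on the y axis, colored by list. Each point is 1 gene as fitted by edgeR, and values of genes with no more than a few counts in a group depend on the fit. MSX1 (-1.87, 2.85), MSX2 (-3.17, 3.16), RGMA (-2.28, 3.95) and CTDSPL (-1.15, 6.62) lie at the upper left, lower in DU145 and higher in PC3.

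Genes whose levels ran most like those of BMP7, NOG and ID1 were ranked by Pearson's r of log2 CPM over the 8 libraries, for the 11447 genes that averaged 5 CPM or more. The libraries fall into 4 groups, so for BMP7 and NOG r mostly compares 4 means. For ID1 it also carries the differences between libraries of a resistant group. All values of r are given as a description. BMP7 was most like ZNF22 (r = 0.985), HSPB8 (0.978), ERLIN2 (0.974) and UVRAG (0.973). HSPB8, a small heat shock protein, had the range nearest to that of BMP7, with 0.117 and 0.115 CPM in DU145 resistant against 15.2 and 12.9 CPM in DU145 sensitive libraries, and 18.9 and 21.5 CPM in PC3 resistant against 0.29 and 0.473 CPM in PC3 sensitive libraries. NOG was most like MYO10 (0.987), CDK14 (0.982), MICALL1 (0.976) and STXBP6 (0.975). CDK14, a cyclin-dependent kinase, had 67.3 and 58.9 CPM in DU145 resistant against 21.5 and 20.0 CPM in DU145 sensitive libraries, and 114 and 158 CPM in PC3 resistant against 20.7 and 19.0 CPM in PC3 sensitive libraries. ID1 had lower values, with RNF145 (0.956), PLCB3 (0.902), TROAP (0.889) and KPNA2 (0.886). The first 2 varied little, with 87.3 to 109 CPM for RNF145 and 72.7 to 93.0 CPM for PLCB3, against 78.3 to 295 CPM for ID1. KPNA2, an importin, was like ID1 higher in replicate 1 of the DU145 resistant libraries, at 384 against 293 CPM in replicate 2. In the PC3 resistant libraries KPNA2 was higher in replicate 2, at 666 against 516 CPM in replicate 1. It was named for its correlation with ID1 over these same libraries, so the shared direction is no separate result.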

How the data were processed

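Bulk RNA-seq was available for 8 libraries, 2 per group, and groups were taken from the sample labels. The authors deposited raw counts per gene, 1 table per library, from reads aligned to hg38 with Bowtie per the labels. Neither the Bowtie version nor the counter, annotation or strand option is given in the sources used here. The single cell data of the paper were not analysed here.

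Counts were tested with edgeR 4.0.16 (R 4.3.3) by the quasi-likelihood test with TMM scaling (factors 0.951 to 1.038), after filterByExpr left 20238 of 60554 genes, with 1 mean per group over all 8 libraries and 4 residual degrees of freedom. P-values were adjusted by Benjamini-Hochberg over all tested genes, and the SE was taken as the size of the log2 fold change over the square root of its F statistic. The code was tested on simulated data. CPM used total counts, and RPKM used the union of exons in GENCODE 44, which held 56558 of the gene IDs. The members and lists were chosen with earlier results of these data known. Of each list outside the 10 genes, up to 4 genes were named, those past the threshold in either line with the largest fold change and a mean of at least 1 CPM. For BMP7, NOG and ID1, the 4 most correlated genes were named.

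Total counts ranged from 31685148 to 43045127. Mitochondrial genes took 0.501% to 2.07% of them. Libraries of a group differed by more than sampling noise (chi-square per degree of freedom 18.4 to 47.9). Reads carry no molecular identifiers, so intervals and floors cover counting error only. The alternatives were DESeq2 1.42.0, RLE scaling, a replicate block, a fit to either line alone, CPM on TMM library sizes, each library left out in turn, all genes with a count in place of the filter, and a stricter filter (1 CPM in 4 libraries).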

Additional observations from a re-analysis of the deposited data

Results flagged for a closer look

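The change in PC3 minus the change in DU145, on the log2 scale, stood out in these genes because the lines differed. BMP7 (11.5, SE 0.51) and BMP4 (4.29, SE 0.43) had every resistant library below the sensitive ones in DU145 and above them in PC3. These genes were chosen on that difference, so it is given as a description, with no p.

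For genes outside the 10, the difference itself was tested with edgeR and passed for 19 of the 20 named. Those 20 were named for their fold changes in 1 line or the other, and of all 62 pathway genes tested 36 (58.1%) passed, beside 34.3% of all tested genes. Among ligands it was 0.96 for BMP8B (edgeR adjusted p = 0.033), 2.66 for INHBA (edgeR adjusted p = 0.00816) and -1.97 for INHBB (edgeR adjusted p = 0.0188). Among antagonists and modulators it was 8.47 for CHRD (edgeR adjusted p = 8.98e-05, with 1 count in the PC3 sensitive libraries, so its size is uncertain), 9.53 for CHRDL1 (edgeR adjusted p = 6.37e-06) and 3.41 for TLL2 (edgeR adjusted p = 0.00041). For TLL1 it was -2.65 (edgeR adjusted p = 0.119) and did not pass, though it did in 3 of 13 alternatives, and it was -3.71 without DU145 resistant replicate 2 and 2.07, the other direction, without DU145 resistant replicate 1. Among receptors it was -1.32 for ENG (edgeR adjusted p = 0.0397), 6.23 for RGMA (edgeR adjusted p = 7.59e-05), 2.89 for TGFBR3 (edgeR adjusted p = 9.02e-05) and 5.88 for NEO1 (edgeR adjusted p = 9.47e-08). Among intracellular genes it was 1.41 for SMAD1 (edgeR adjusted p = 0.000934), 2.78 for SMAD9 (edgeR adjusted p = 0.00181), -1.98 for SKIL (edgeR adjusted p = 0.000686) and 7.77 for CTDSPL (edgeR adjusted p = 1.41e-07). Among targets it was -1.6 for SMAD6 (edgeR adjusted p = 0.0201), -1.88 for SMAD7 (edgeR adjusted p = 0.00267), 4.71 for MSX1 (edgeR adjusted p = 4.37e-06) and 6.33 for MSX2 (edgeR adjusted p = 8.59e-05). For TCF3 it was -0.49 (edgeR adjusted p = 0.0491). The call of TCF3 was lost in 11 of 13 alternatives, and those of BMP8B, ENG, SMAD6 and INHBB in 6, 6, 5 and 2 of 13. Single libraries moved other differences by over 1.5 times. Without DU145 resistant replicate 1, INHBA was 3.87 and SMAD6 -0.87, and without DU145 resistant replicate 2, INHBA was 1.96 and CHRD 9.33. CHRDL1 was 8.73 without DU145 sensitive replicate 1. Without PC3 sensitive replicate 1, CHRD was 10.96, RGMA 7.25 and MSX2 7.4, and without PC3 sensitive replicate 2, CHRD was 7.65 and MSX2 5.73. INHBB was -2.73 without PC3 resistant replicate 1, and SMAD9 was 2.19 without PC3 resistant replicate 2.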

How the results depend on the processing

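No called value changed sign under any alternative run. RLE scaling, DESeq2 and a filter of 1 CPM in 4 libraries left every count of genes within 1.5 times. With fits on 1 line alone, 10 other pathway genes were lower in DU145. Of the 10 genes, 0 were lower in PC3, beside 17.0% of all tested genes. That count was 2 without a low count filter, 1 with a fit on PC3 alone and 2 with the replicate block. The replicate block gave 7 higher and 17 lower other pathway genes in DU145, 20 and 19 in PC3, and 24 and 18 for the difference. Deviations of same-numbered libraries correlated at 0.323 in DU145 and 0.0861 in PC3, and nothing in the labels pairs them. The causes were not tested. On TMM library sizes the PC3 sensitive means of ID1 and ID3 were 203 and 71.8 CPM, against 195 and 69.1 CPM.

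Leaving out 1 library at a time, with a lone library assumed to vary like the other groups, left between 1380 and 2467 higher and between 2243 and 3076 lower genes in DU145, 2349 to 4020 and 1983 to 3578 in PC3, and 2859 to 3610 and 2175 to 3212 for the difference. Other pathway genes numbered 3 to 6 higher and 11 to 14 lower in DU145, 15 to 20 and 11 to 17 in PC3, and 20 to 22 and 6 to 10 for the difference. The 10 genes were chosen by these contrasts, so how many of them passed in these runs is not read as a result. Of 60 results of named other genes, 51 kept their call under every alternative that could be run. Depth limits BMP2, and BMP6 and BMP7 where they had 16 counts or fewer. Every gene symbol had 1 row, so the planned sum over rows gave no further value.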
